A study of Mus musculus with 24 samples.

Results

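The difference that di(2-ethylhexyl) phthalate (DEHP) made to the liver transcriptome of ethanol-treated mice was measured by RNA sequencing. The comparison took the 6 libraries labelled DE, from mice given DEHP at 2500 mg/kg body weight together with ethanol at 1 g/kg, and the 6 labelled EtOH, from mice given ethanol at 1 g/kg alone. These 12 were chosen by their titles from 24 libraries in all. The other 12 libraries, 6 labelled DEHP (2500 mg/kg) and 6 labelled CT (the vehicle, 0.5% carboxymethylcellulose, CMC), share no sample with them and served to show how the same addition of DEHP looked without ethanol. All mice were male C57BL/6 of 20 to 30 g, dosed by gavage, and every library came from liver. The labels name CMC for the CT group only, give no age, treatment length or hour of collection, and list 12 mice per group against 6 libraries. Nothing ties a library to an animal, so the p-values below reflect spread among these libraries only, and some of it may be technical. The dose of DEHP was the same in both groups that received it, so nothing is known from these files of lower doses.

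DEHP is a plasticiser whose monoester metabolite activates the nuclear receptor PPARα in rodent liver. PPARα pairs with RXR on DNA and raises genes that take up, activate and oxidise fatty acids in peroxisomes, mitochondria and the endoplasmic reticulum. Ethanol is oxidised in hepatocytes by alcohol dehydrogenase and CYP2E1 to acetaldehyde, which aldehyde dehydrogenases turn into acetate.

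The libraries held 7324793 to 8016662 expected counts each and listed 13958 to 15114 genes. Albumin was at 21359 to 36949 FPKM (fragments per kilobase of transcript, scaled to the library total) in the 12 libraries. Library DE6 stood apart. Skeletal muscle transcripts were abundant in it, with Acta1, the actin of skeletal muscle, at 1460 FPKM in DE6 and at most 0.39 FPKM in DE1 to DE5, and 27 muscle markers summed to 7051 FPKM in DE6, to 8.04 to 14.1 FPKM in DE1 to DE5 and to 6.45 to 10.25 FPKM in EtOH. The 28th marker listed, Car3, is left out of these sums, at 375 to 980 FPKM in DE and 808 to 1661 FPKM in EtOH. Library CT1 held muscle transcripts as well. Each count was therefore also taken without DE6, and muscle genes are not read as a response. Library DE4 differed least from ethanol: over the 424 called genes that moved at least 2-fold, its median difference in the direction of the change was 1.18 on the log2 scale, against 1.37 to 1.59 in the other 5.

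Among 10697 genes tested with edgeR's quasi-likelihood test, 2976 (27.8%) passed an adjusted p of 0.05. Of these, 1620 rose (15.1% of the genes tested) and 1356 fell (12.7%) in DE relative to EtOH. The change reached at least 2-fold in 295 risen and 129 fallen genes. The FPKM values of both groups did not overlap in 1680 genes (15.7%). Without DE6 the test passed 2874 genes, 1501 higher and 1373 lower, and 2694 of them were among those passed with it. The share of risen genes among those passed, 54.4%, depended on scaling: it was 70.6% when TMM factors were left out and 69.2% on log2(FPKM + 1). The 10 most abundant genes took 14.2% to 16.6% of the counts in DE libraries and 17.8% to 20.0% in EtOH libraries, which did not overlap. The first principal component, 45.3% of the variance of the 12 libraries, separated the groups, from -34.51 to -12.6 in DE and from 24.59 to 29.04 in EtOH.

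Genes of omega and peroxisomal fatty acid oxidation held several of the largest rises. Of 36 tested members, 23 rose, 3 fell and 10 did not pass, with a median log2 change of 0.72, against 0.02 over all genes tested. The 36 include 1 gene that was tested only through its level in DE or DEHP and rose. Without it the median was 0.71. Ehhadh (chr16:21761285-21787834, GRCm38.p6), the peroxisomal bifunctional enzyme, had 1757, 2682 and 3472 FPKM in the lowest, median and highest DE library, against 87.6, 102 and 110.2 FPKM in EtOH. The groups were far apart and did not overlap (log2 change 4.65 ± 0.24 SE, adjusted p = 5.59e-13). Cyp4a14 (chr4:115486200-115496158), a fatty acid omega-hydroxylase of the endoplasmic reticulum, had 3143, 4130.0 and 5117 FPKM in DE and 94.4, 131 and 235 FPKM in EtOH. It did not overlap either (log2 change 4.78 ± 0.43 SE, adjusted p = 6.77e-09). Its relatives Cyp4a10 and Cyp4a31 changed by 4.26 and 4.92 on the log2 scale. The Cyp4a genes are near-identical copies and the way shared reads were assigned is not given in the sources used here, so their single values are uncertain.

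Not all peroxisomal genes moved. Catalase, Cat, which breaks down hydrogen peroxide made by the oxidases, had a log2 change of 0.05 ± 0.08 SE (adjusted p = 0.67), with overlapping groups of 1209 to 1357 FPKM in DE and 1132 to 1289 FPKM in EtOH. Phyh, which starts the alpha-oxidation of branched acids, had -0.14 ± 0.10 SE (adjusted p = 0.34), and Scp2, the peroxisomal thiolase and sterol carrier, -0.26 ± 0.11 SE (adjusted p = 0.08), which passed without DE4 (adjusted p = 0.025). Hacl1, also of alpha-oxidation, rose by 1.00. The 3 members that fell, Nudt7, Pipox and Cyp4f13, changed by -0.68, -0.54 and -0.38 and are named after their values were seen. Among 16 peroxins, the proteins that build the organelle, 3 rose, among them Pex11a (0.73) and Pex2 (0.29), and Pex26 fell (-0.65), with a median of 0.14. Over all genes tested 15.1% rose and 12.7% fell. The count of risen peroxins was 9 when TMM factors were left out.

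**Figure D1:**
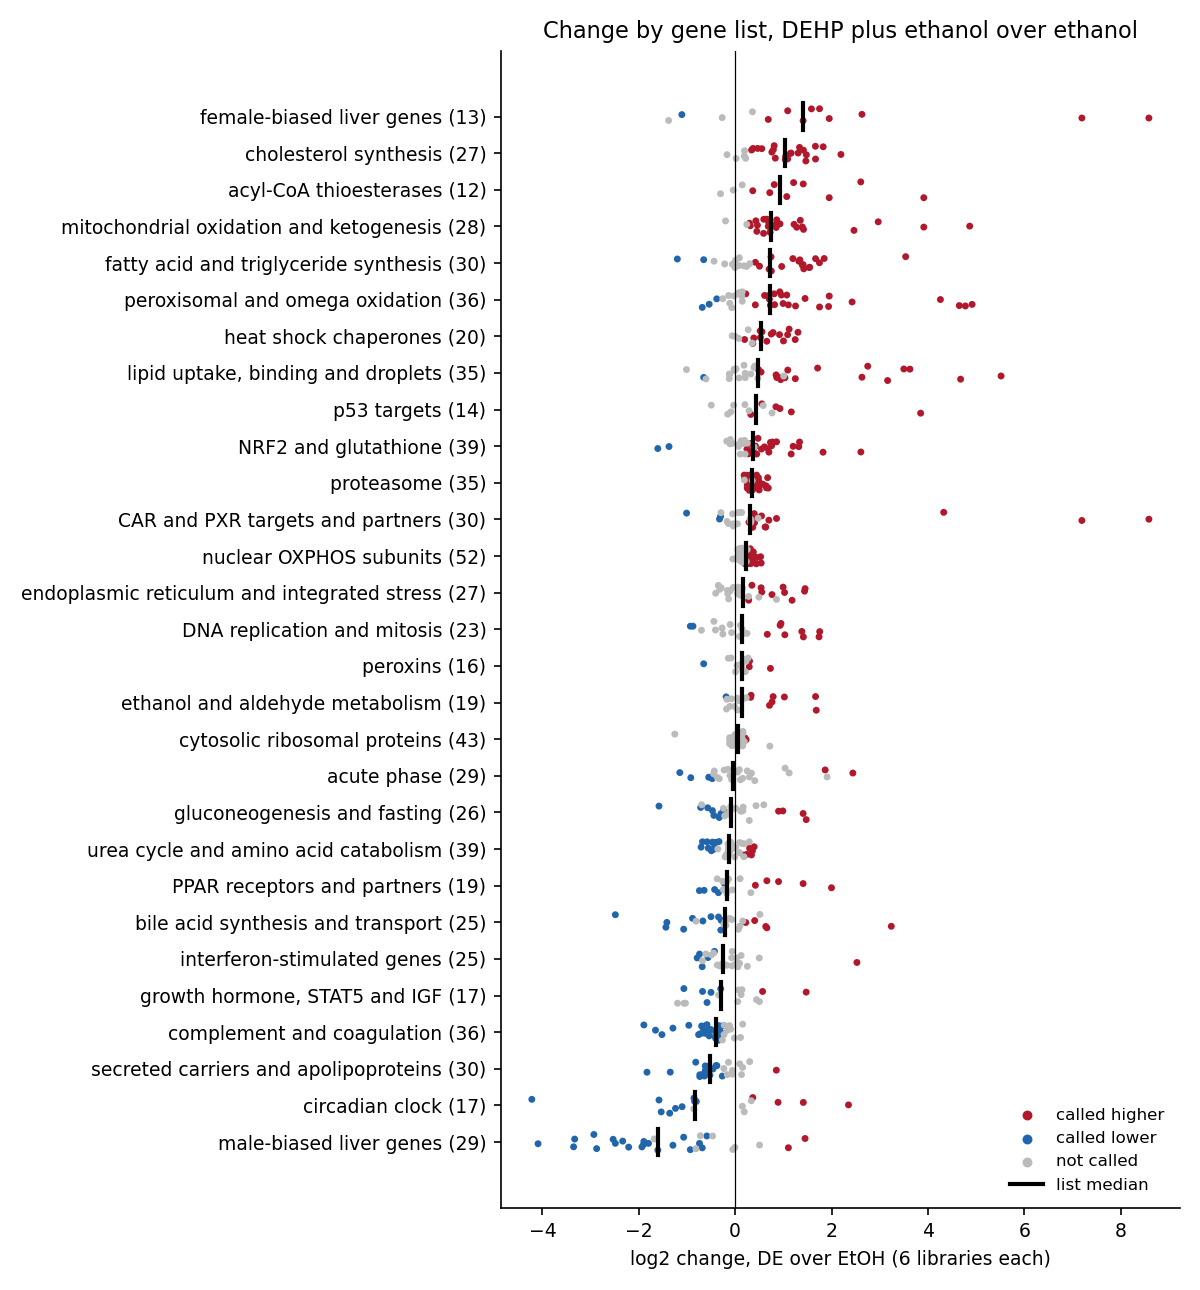
Log2 change of DE over EtOH for every tested member of 29 gene lists, 1 point a gene, sorted by list median (black bar), with the number of tested members in brackets. Red and blue points passed an adjusted p of 0.05 as higher or lower, grey points did not; list medians lie between 1.41 in the 13 tested of 28 female-biased genes, 4 of which were tested only through their level in DE or DEHP, and -1.61 in male-biased genes.

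Mitochondrial oxidation moved almost as a block. Of 28 tested genes of mitochondrial oxidation and ketone synthesis, 26 rose and none fell (median 0.74). The 28 include 1 gene that was tested only through its level in DE or DEHP and rose. Without it the median was 0.725. The acyl-CoA dehydrogenases Acadm and Acadl, of medium and long chains, changed by 1.35 and 1.22, and Hadhb, a subunit of the trifunctional protein, by 1.28. Eci1 and Decr1, which handle the double bonds of unsaturated acids, changed by 1.42 and 1.39. Each of these 5 genes had all 6 DE libraries above all EtOH libraries, and DE levels of 124 to 427 FPKM against EtOH levels of 47.5 to 137 FPKM. The gate of mitochondrial entry in liver, Cpt1a, did not pass (-0.20 ± 0.12 SE, adjusted p = 0.21), while its muscle-type counterpart Cpt1b did. Cpt1b had 3.35, 3.90 and 16.8 FPKM in DE and 0, 0.19 and 0.47 FPKM in EtOH (log2 change 4.87 ± 0.98 SE, adjusted p = 4.17e-04). The highest value was that of DE6, the library with muscle transcripts, and the other 5 DE libraries lay between 3.35 and 7.76 FPKM, above every EtOH library. Cpt1b was at 1 FPKM or more in fewer than 6 of the EtOH and CT libraries, so only its level in DE or DEHP let it be tested. Pdk4, a kinase that turns off pyruvate dehydrogenase, rose by 2.47 ± 0.57 SE (adjusted p = 0.0018). Bdh1, which makes hydroxybutyrate, had a log2 change of 0.24 with an adjusted p of 0.06, although its groups did not overlap. Of 12 acyl-CoA thioesterases, which release free fatty acids from coenzyme A, 9 rose and none fell (median 0.94), led by Acot2 (3.92) and Acot1 (2.61). Of the 12, 2 were tested only through their level in DE or DEHP, and both rose. The median of the other 10 was 0.77.

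Many genes that bring fatty acids into the cell and store them rose. Among 35 tested genes of fatty acid uptake, binding and storage 17 were higher and 1 was lower (median 0.48). Of these 35, 4 were at 1 FPKM or more in fewer than 6 of the EtOH and CT libraries, so they were tested only through their level in DE or DEHP, and all 4 rose. Mogat1 (chr1:78511060-78606964), a monoacylglycerol acyltransferase that is low in normal liver, had 13.4, 19.5 and 22.1 FPKM in DE and 0, 0.31 and 0.85 FPKM in EtOH (log2 change 5.52 ± 0.33 SE, adjusted p = 6.51e-12). Cd36 (chr5:17781690-17888959), the fatty acid translocase, had 52.3, 69.0 and 86.4 FPKM in DE and 3.86, 5.36 and 6.43 FPKM in EtOH (log2 change 3.63 ± 0.25 SE, adjusted p = 9.19e-11). Both were high in every DE library and low in every EtOH library. Slc27a1, an acyl-CoA synthetase and transporter, changed by 3.50, and Fabp1, the main fatty acid binding protein of hepatocytes, by 1.03. Fabp1 was lowest among DE in DE6, at 11461 FPKM, still above the highest EtOH library at 7495 FPKM. Dgat2, which adds the last acyl chain of triglyceride, was the member that fell (-0.65 ± 0.07 SE, adjusted p = 2.15e-07). Without DE6 the droplet protein Plin4 fell as well (-1.24), and without DE4 the lipase inhibitor G0s2 did (-0.90, adjusted p = 0.046), both named after their values were seen. The secreted lipoprotein lipase inhibitor Angptl4 did not pass (0.47 ± 0.29 SE, adjusted p = 0.25).

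**Figure D2:**
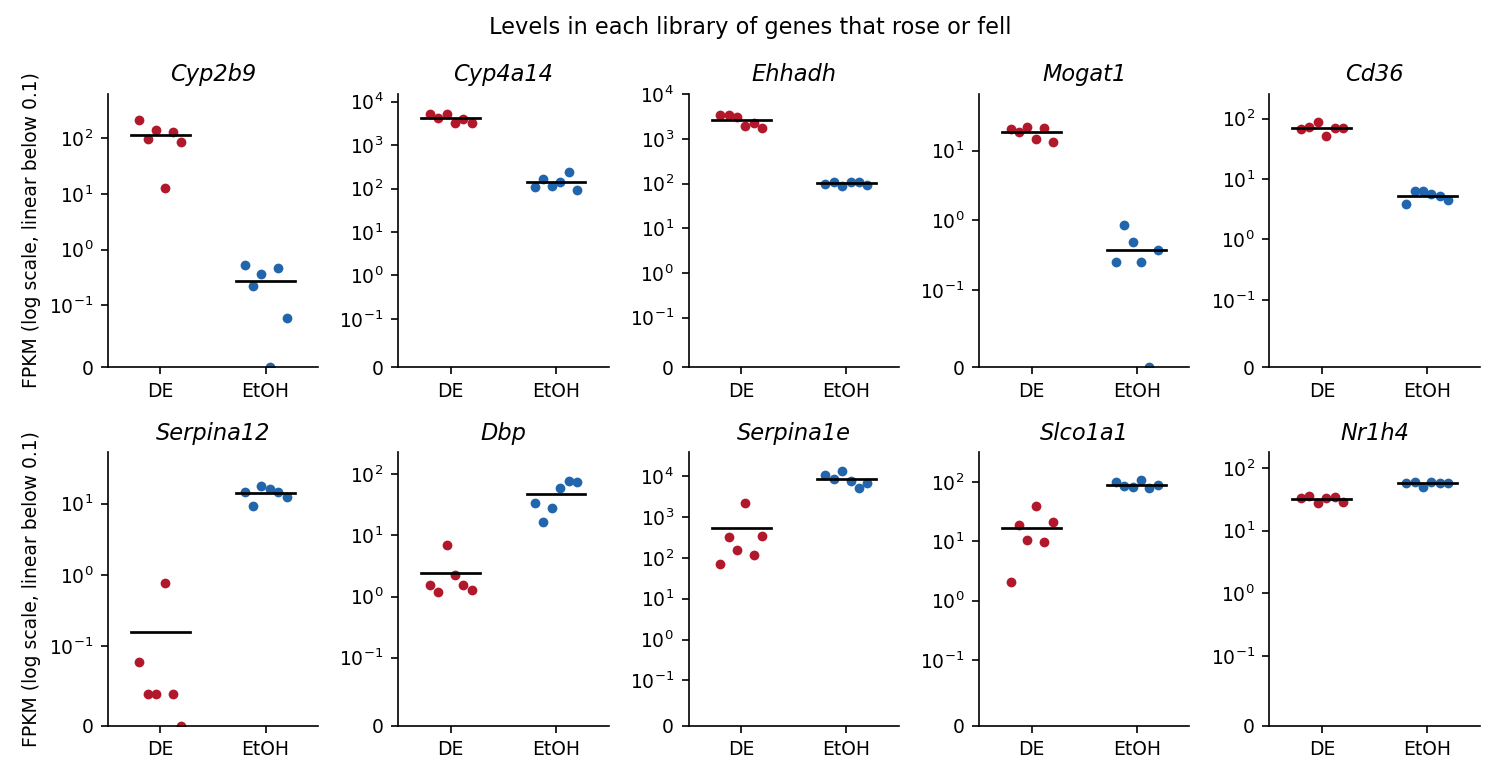
FPKM in each of the 6 DE and 6 EtOH libraries (points) with the mean (bar), on a log axis that is linear below 0.1 FPKM, for 5 genes that rose (upper row) and 5 that fell (lower row). The groups do not overlap in any of the 10 panels; in the Dbp panel the DE point at 6.88 FPKM is DE3, and in the Serpina12 panel the DE point at 0.77 FPKM is DE4.

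Of 19 PPAR receptors and partners, 5 rose and 5 fell (median -0.17), where 15.1% of all genes tested rose and 12.7% fell. Without DE6 4 rose and 7 fell, and on log2(FPKM + 1) 3 fell. Ppara itself had a log2 change of -0.43 ± 0.12 SE (adjusted p = 0.012), with overlapping groups of 22.5 to 37.3 FPKM in DE and 28.1 to 41.6 FPKM in EtOH, and its call was lost on log2(FPKM + 1), at -0.09 with an adjusted p of 0.63. Its partner Rxra fell by 0.35. Ppard, the ubiquitous family member, rose by 1.9999 ± 0.23 SE, to a median of 10.9 FPKM in DE against 2.22 FPKM in EtOH. Library DE3, at 3.55 FPKM, was the exception and lay inside the EtOH range of 1.46 to 3.59 FPKM. The coactivators Ppargc1a and Lpin1 rose by 0.90 and 1.41. Among the other members called, named after their values were seen, were Nr0b2 (0.66) and Pparg (0.42), and, lower, Rxrg (-0.74) and Ncor1 (-0.22).

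Cholesterol synthesis genes, which SREBP2 drives when sterol is short, rose together. Of 27 tested, 22 rose and none fell, with a median of 1.04. The enzymes Lss, Pmvk, Acat2, Fdft1 and Cyp51 changed by 1.83, 1.67, 1.67, 1.34 and 1.15. Their groups did not overlap.

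Genes of fatty acid and triglyceride synthesis rose too: 18 of 30 tested rose and 2 fell (median 0.72). The 30 include 1 gene that was tested only through its level in DE or DEHP and rose. Without it the median was 0.70. The members that fell were Pklr, a pyruvate kinase (-1.20, named after its value was seen), and Dgat2. Fasn, the fatty acid synthase, had 129, 186 and 239 FPKM in DE and 42.8, 55.6 and 87.0 FPKM in EtOH (log2 change 1.55 ± 0.29 SE, adjusted p = 2.28e-04). Me1, which supplies NADPH, changed by 1.75, Acss2, which activates acetate, by 1.67, and Scd1, the stearoyl-CoA desaturase, by 0.97. These genes were above the EtOH range in every DE library. Srebf1, the lipogenic regulator, did not pass (-0.44 ± 0.20 SE, adjusted p = 0.11), and neither did Elovl3 (-0.01 ± 0.29 SE, adjusted p = 0.99).

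How much of this also occurred without ethanol was asked with the change of DEHP over CT and with the interaction, the log2 change of DE over EtOH minus that of DEHP over CT. DEHP over CT passed 2778 genes (26.0% of those tested), with 14.4% higher and 11.6% lower. In both comparisons, which share no library, 1266 genes passed in the same direction, 42.5% of the DE over EtOH calls and 45.6% of the DEHP over CT calls, and 68 passed in opposite directions. Across the 10697 genes, which are not independent replicates, the 2 changes had a Pearson correlation of 0.49. Over the 36 peroxisomal and omega oxidation genes it was 0.98. Of these 36, only Hacl1 passed the interaction, and not without DE6 or DE3 (adjusted p = 0.0505 and 0.055). Ehhadh changed by 4.63 in DEHP over CT and Cyp4a14 by 4.59, and their interactions were 0.03 ± 0.29 and 0.19 ± 0.52 SE. Neither passed, which does not show that their responses were equal. Cholesterol synthesis had a median of 0.90 in DEHP over CT, with 23 of 27 members higher, and 2 members passed the interaction, Pmvk (0.76) and Tm7sf2 (-0.52).

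**Figure D3:**
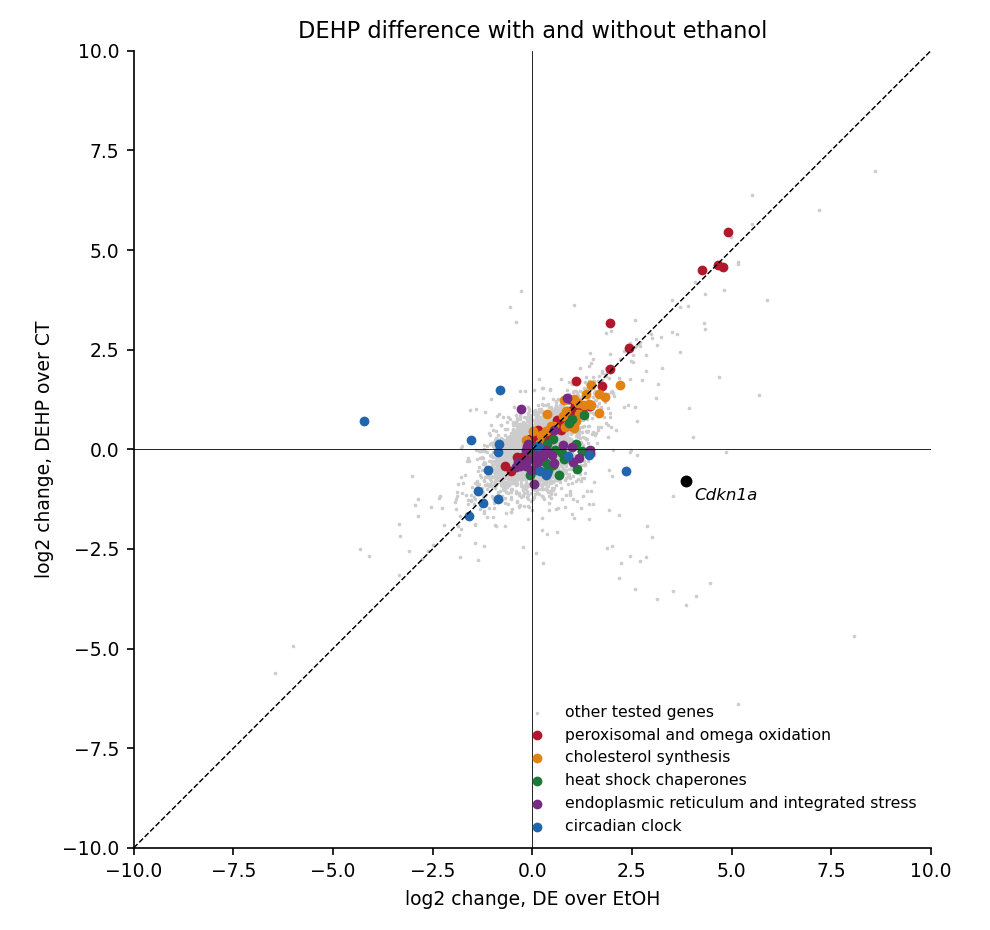
Log2 change of DE over EtOH (horizontal) against DEHP over CT (vertical) for the 10697 tested genes, with the members of 5 lists coloured, Cdkn1a in black and the line of equal change dashed. The interaction passed in 1 of 36 peroxisomal and omega oxidation genes, 10 of 20 heat shock genes, 8 of 27 endoplasmic reticulum genes and 10 of 17 clock genes.

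The interaction passed 686 genes (6.41%), 355 positive (3.32%) and 331 negative (3.09%). It passed 488 without DE6 and CT1, the libraries with muscle transcripts. Of the 2976 genes called in DE over EtOH, 464 also passed the interaction. In 344 of these the change without ethanol had the opposite sign, in 114 it had the same sign and was smaller, and in 6 it was larger. These counts take the sign alone, whether or not the change without ethanol passed. Over all genes tested, 68 passed both comparisons in opposite directions. Choosing genes by the interaction also favours opposite signs. In 641 of the 686 interaction genes (93.4%) the mean difference of EtOH from CT was larger in size than that of DE from DEHP. The same held for 71.4% of all tested genes.

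Cdkn1a (chr17:29090979-29100722), which encodes the cell cycle inhibitor p21, had the smallest adjusted p of the interaction. It had 16.8, 24.3 and 26.0 FPKM in DE and 1.18, 1.29 and 2.34 FPKM in EtOH. In DEHP it had 20.7, 35.2 and 36.8 FPKM, against 43.2, 49.98 and 83.7 FPKM in CT. EtOH was the low group and CT the high one, with no overlap between either pair. The log2 change was 3.85 ± 0.21 SE in DE over EtOH (adjusted p = 1.31e-12) and -0.80 in DEHP over CT, and the interaction was 4.65 ± 0.27 SE (adjusted p = 1.36e-11). Of 14 tested p53 targets, 6 rose and none fell in DE over EtOH (median 0.44). Trp53inp1, a p53-induced nuclear protein, rose by 0.93 in DE over EtOH and fell by 0.65 in DEHP over CT (interaction 1.58). Btg2 and Fas rose by 1.17 and 0.85, and Bax, the apoptosis effector, did not pass (-0.09, adjusted p = 0.57).

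Lpin1 (chr12:16535669-16653903), a phosphatidate phosphatase and PPARα coactivator, was also lowest in EtOH and highest in CT. It had 19.3, 27.0 and 37.8 FPKM in DE and 5.93, 10.2 and 14.1 FPKM in EtOH, while DEHP had 25.2, 27.8 and 32.6 FPKM and CT 52.0, 74.9 and 94.2 FPKM. Its log2 change was 1.41 ± 0.20 SE (adjusted p = 9.41e-06) in DE over EtOH and -1.37 in DEHP over CT (interaction 2.78 ± 0.29 SE, adjusted p = 1.74e-06). In the list of fatty acid and triglyceride synthesis 7 members, Lpin1 included, had a positive interaction and 1, Dgat2, a negative one (-0.45). Acly (chr11:100476352-100528000), which makes cytosolic acetyl-CoA, changed by 1.85 in DE over EtOH and by 0.66 in DEHP over CT (interaction 1.19 ± 0.30 SE, adjusted p = 0.019). Acacb, which makes the malonyl-CoA that inhibits mitochondrial entry, changed by 1.39 and 0.58 (interaction 0.81 ± 0.24 SE, adjusted p = 0.037), a call that was lost without DE6 (adjusted p = 0.0622) and without DE3 (0.0536). Plin2 (chr4:86626910-86670217), the coat protein of lipid droplets, had 334, 366 and 438 FPKM in DE and 177, 191 and 224 FPKM in EtOH. In DEHP and CT its ranges overlapped, at 254 to 362 FPKM and 246 to 320 FPKM, and the interaction was 0.84 ± 0.14 SE (adjusted p = 6.49e-04). For Pdk4 and Cpt1b the interaction, 2.49 and 4.95, was lost without DE6 and CT1 (adjusted p = 0.19 and 0.09). That of Pdk4 was also lost without DE6, DE3 or DE4 alone, at adjusted p-values of 0.0706, 0.0518 and 0.0555. In that fit their changes in DEHP over CT were 1.36 and 2.36.

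Clock genes form a transcriptional feedback loop that turns over each day, and their levels depend on the hour of collection, which the labels do not give. Of 17 tested, 4 rose and 9 fell in DE over EtOH (median -0.84). Dbp (chr7:45705100-45710203), an output factor that binds D-box elements, had 1.21, 1.54 and 6.88 FPKM in DE and 16.6, 46.3 and 77.3 FPKM in EtOH (log2 change -4.22 ± 0.38 SE, adjusted p = 6.77e-09). DEHP had 0.65 to 1.94 FPKM and CT 0.36 to 1.67 FPKM, and no library outside the EtOH group reached its lowest value. Tef, its relative, changed by -1.54, and the repressors Per1, Cry2 and Nr1d1 by -1.58, -0.85 and -0.81. The Nr1d1 call was lost without DE6 (adjusted p = 0.07). Npas2 and Arntl, the activators, changed by 2.35 and 1.41. The interaction was positive in 6 clock genes and negative in 4, among them Dbp (-4.92), Npas2 (2.91), Nr1d1 (-2.30), Tef (-1.77) and Arntl (1.55). In DEHP over CT 1 clock gene rose and 8 fell (median -0.52), where 14.4% of all genes tested rose and 11.6% fell. Across the 17 genes the changes of DE over EtOH and of DEHP over CT had a correlation of -0.13. Within DE, library DE3 stood nearest to the EtOH libraries for Dbp, Tef, Npas2 and Ppard.

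**Figure D4:**
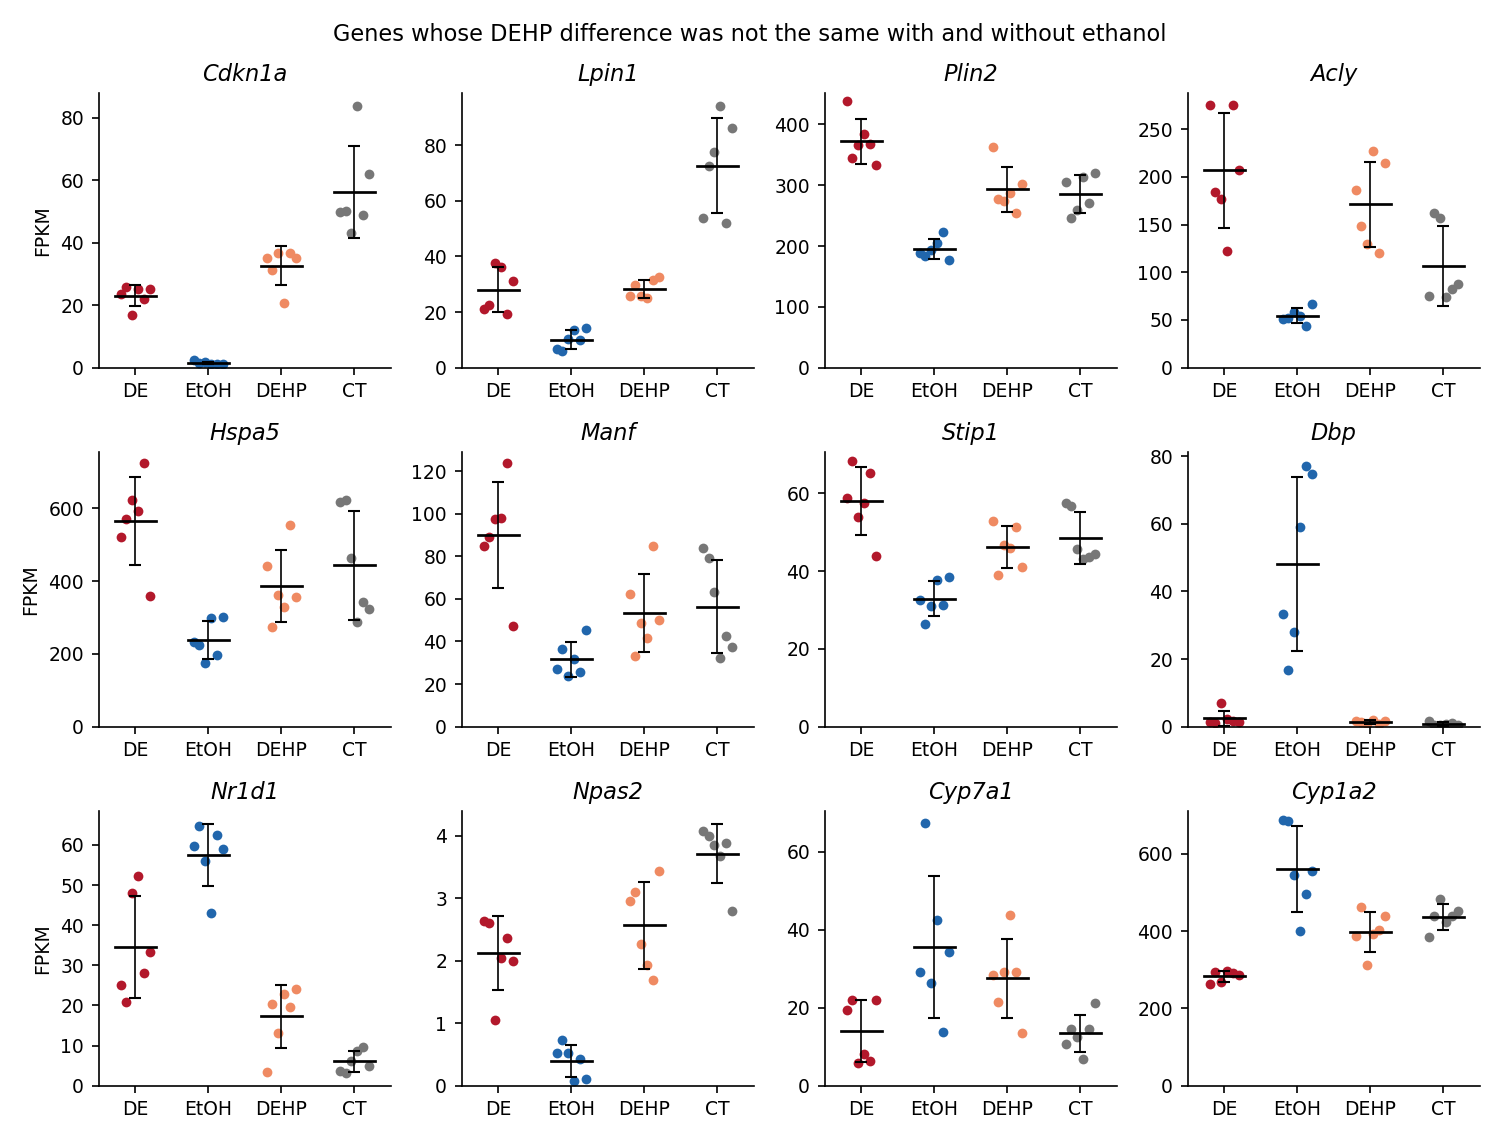
FPKM in each of the 24 libraries (6 points a group) with the mean and SD, for 12 genes whose interaction passed, in the groups DE, EtOH, DEHP and CT. EtOH holds the lowest mean for Cdkn1a, Lpin1, Plin2, Acly, Hspa5, Manf, Stip1 and Npas2 and the highest for Dbp, Nr1d1, Cyp7a1 and Cyp1a2.

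Of 20 heat shock chaperones 15 were higher in DE than in EtOH, and of 27 endoplasmic reticulum and integrated stress genes 10 were. Heat shock factors bind an element of alternating GAA and TTC in the promoters of heat shock genes, and endoplasmic reticulum chaperones carry the ER stress response element, to which ATF6 binds. The promoters below are shown because they hold these elements next to genes that rose, and because Calr holds one and did not pass. Each line gives the 250 bases before the RefSeq start in the direction of the gene (GRCm38.p6), with the matched bases in capitals.
Hspa5: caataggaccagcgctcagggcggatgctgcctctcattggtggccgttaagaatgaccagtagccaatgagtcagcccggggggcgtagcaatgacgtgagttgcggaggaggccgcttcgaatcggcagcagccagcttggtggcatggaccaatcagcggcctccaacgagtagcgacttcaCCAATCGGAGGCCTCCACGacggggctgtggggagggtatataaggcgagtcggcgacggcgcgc
Creld2: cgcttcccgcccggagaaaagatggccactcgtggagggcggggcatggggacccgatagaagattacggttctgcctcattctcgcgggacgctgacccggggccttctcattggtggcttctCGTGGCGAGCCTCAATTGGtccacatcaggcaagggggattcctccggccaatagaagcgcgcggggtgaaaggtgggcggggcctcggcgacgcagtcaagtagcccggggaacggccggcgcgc
Calr: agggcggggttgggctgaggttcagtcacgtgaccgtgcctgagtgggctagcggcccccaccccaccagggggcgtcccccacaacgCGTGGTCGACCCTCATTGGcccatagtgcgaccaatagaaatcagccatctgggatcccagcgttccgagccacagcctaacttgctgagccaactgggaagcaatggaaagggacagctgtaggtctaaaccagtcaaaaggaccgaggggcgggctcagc
Hspd1: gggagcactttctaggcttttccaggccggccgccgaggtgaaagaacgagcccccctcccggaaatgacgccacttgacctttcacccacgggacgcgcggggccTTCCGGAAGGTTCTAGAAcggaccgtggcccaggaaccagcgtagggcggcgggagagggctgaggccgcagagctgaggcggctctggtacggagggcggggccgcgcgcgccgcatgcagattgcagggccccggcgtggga
The windows are chr2:34771840-34772089 (plus strand) for Hspa5, chr15:88819396-88819645 (plus) for Creld2, chr8:84846932-84847181 (minus) for Calr and chr1:55087933-55088182 (minus) for Hspd1. The element searched in the first 3 was CCAAT, 9 bases of any kind and CCACG, and the heat shock element was GAA, TTC and GAA with 2 bases of any kind between them, each on both strands. The capitals of Hspd1 hold 2 overlapping matches, 1 on each strand. RefSeq gives Hspd1 more than 1 start, and the window printed precedes the inner one, so it lies within the annotated span of Hspd1 and takes in the start of Hspe1 on the other strand. The ER stress response element stood in 7 of the 24 endoplasmic reticulum genes with a promoter in the table (29.2%) and in 0.186% of 8604 tested genes. The heat shock element stood in 2 of 15 heat shock genes, Hspd1 and Hspe1 (13.3%), and in 0.477% of tested genes. The windows of Hspd1 and Hspe1 overlap and hold the same run of bases, so 13.3% counts 1 site for both genes. The search took in 4 more elements, on both strands. A pair of AGGTCA copies with 1 base between them (DR1) stood in 0 of 24 peroxisomal and omega oxidation genes and in 0.0581% of tested genes. ATCAC followed by CCCAC (a sterol regulatory element) stood in 0 of 19 cholesterol synthesis genes and in 0.0465% of tested genes. TTATG followed by TAA (the D-box) stood in 0 of 14 clock genes and in 0.651% of tested genes, and CACGTG (the E-box) in 3 of the 14 (21.4%) and in 10.2%. No match says only that these letters are not in these windows. A match is a run of letters and not evidence of binding.

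Of 27 tested genes of endoplasmic reticulum and integrated stress, 10 rose and none fell (median 0.16), and 17 did not pass. Hspa5 (chr2:34772090-34776529), the main lumenal chaperone BiP, had 360, 582 and 726 FPKM in DE and 174, 229 and 300.3 FPKM in EtOH (log2 change 1.18 ± 0.20 SE, adjusted p = 6.82e-05). All DE libraries were above all EtOH libraries. In DEHP and CT it had 273 to 553 FPKM and 287 to 624 FPKM, which overlapped, and the interaction was 1.40 ± 0.28 SE (adjusted p = 0.0041). Manf, a secreted factor of the same response, changed by 1.44 (interaction 1.53, adjusted p = 0.0088), Dnajb9, a co-chaperone of BiP, by 1.00 (interaction 0.94, adjusted p = 0.028) and Pdia4, a disulfide isomerase, by 0.76 (interaction 0.67, adjusted p = 0.048). The Dnajb9 and Pdia4 interactions were lost without DE3 (adjusted p = 0.0518 and 0.0775), and that of Pdia4 also without DE4 (adjusted p = 0.0634). Creld2 rose by 1.45 ± 0.33 SE (adjusted p = 0.0015), with an interaction of 1.46 that missed the threshold (adjusted p = 0.054) and passed it without DE6 (adjusted p = 0.031). Calr, a calcium-binding chaperone, had a log2 change of 0.07 ± 0.11 SE (adjusted p = 0.68), with 466, 581 and 632 FPKM in DE and 471, 519 and 576 FPKM in EtOH. Herpud1, of the degradation machinery, did not pass either (0.05 ± 0.16 SE, adjusted p = 0.85), but was lower in DEHP than in CT (-0.86) and had an interaction of 0.92 (adjusted p = 0.018).

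Heat shock chaperones rose in 15 of 20 tested genes and fell in none (median 0.54). In DEHP over CT their median was -0.10, with 3 higher and 4 lower, where 14.4% of all genes tested rose and 11.6% fell. A positive interaction passed in 10 of the 20 and in 3.32% of all genes tested. Stip1 (chr19:7020696-7040026), which joins HSP70 to HSP90, had 44.0, 58.1 and 68.4 FPKM in DE and 26.4, 31.9 and 38.6 FPKM in EtOH (log2 change 0.75 ± 0.11 SE, interaction 0.84 ± 0.16 SE, adjusted p = 0.0026). Hspa4l, an exchange factor of HSP70, changed by 1.09 (interaction 0.96, adjusted p = 0.013). The mitochondrial pair Hspd1 and Hspe1, whose windows both hold the heat shock element printed above, rose by 0.92 and 1.00 and did so without ethanol as well, by 0.67 and 0.76. Hspb1, a small heat shock protein, rose by 1.304 with ethanol and by 0.86 without it. Bag3, a co-chaperone, did not pass (0.36 ± 0.17 SE, adjusted p = 0.12).

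The bile acid genes moved in both directions, where 15.1% of all genes tested rose and 12.7% fell. Of 25 tested, 5 rose and 10 fell (median -0.20). Without DE3 3 rose. Cyp7a1 (chr4:6265612-6275632), the first and rate-limiting step from cholesterol to bile acids, had 5.75, 13.8 and 21.99 FPKM in DE and 13.8, 31.7 and 67.3 FPKM in EtOH (log2 change -1.42 ± 0.35 SE, adjusted p = 0.0036). The ranges overlapped. Without ethanol it went the other way (1.01, adjusted p = 0.036), with overlapping ranges of 13.5 to 43.9 FPKM in DEHP and 6.95 to 21.2 FPKM in CT. That rise did not pass without DE6 and CT1 (0.93, adjusted p = 0.07). The interaction was -2.43 ± 0.50 SE (adjusted p = 0.0046), and -2.52 without DE6 and CT1 (adjusted p = 0.0064). Nr1h4, the bile acid receptor FXR, fell by 0.88 (interaction -0.54, adjusted p = 0.021, lost without DE6 and CT1 at 0.0515). Slco1a1, an organic anion uptake carrier, had 2.09, 14.7 and 39.8 FPKM in DE and 78.8, 86.9 and 107 FPKM in EtOH (log2 change -2.49 ± 0.51 SE, adjusted p = 6.21e-04), and Cyp39a1, an oxysterol hydroxylase, changed by -1.44. The export pump Abcc4 rose by 3.24 ± 0.34 SE, to a median of 3.70 FPKM in DE against 0.41 FPKM in EtOH. Abcc4 was below 1 FPKM in every EtOH and CT library, so only its level in DE or DEHP let it be tested. The median of the other 24 bile acid genes was -0.22. The other members that rose, named after their values were seen, were the exporter Abcc3 (0.64), the repressor Nr0b2 (0.66), Akr1d1 (0.40) and Acox2 (0.22). Cyp8b1, which sets the share of cholic acid, did not pass (0.51 ± 0.25 SE, adjusted p = 0.13).

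Of 30 CAR and PXR targets and partners, 13 rose and 3 fell (median 0.32; Cyp2c37, Ces2a and Ugt2b35, at -1.01, -0.32 and -0.30, named after their values were seen). Cyp2b9 (chr7:26173350-26210661) had the largest rise of the comparison, at 12.7, 115 and 212 FPKM in DE and 0, 0.30 and 0.52 FPKM in EtOH (log2 change 8.59 ± 0.85 SE, adjusted p = 2.96e-08). DE4 was the lowest of the DE libraries. Cyp2b9 was at 1 FPKM or more in fewer than 6 of the EtOH and CT libraries, so only its level in DE or DEHP let it be tested. Of the 30 listed genes, 2 were tested only in this way, and both rose. The median of the other 28 was 0.30. Cyp2b10, the usual marker of CAR, changed by 4.33 ± 0.49 SE, again with DE4 lowest at 6.42 FPKM. Cyp3a11, the main PXR target (0.05 ± 0.12 SE, adjusted p = 0.79), and Cyp2c29 (-0.04 ± 0.13 SE, adjusted p = 0.86) did not pass. Cytochrome P450 paralogues can share reads, so these single values are uncertain. Of 39 NRF2 and glutathione genes, 23 rose and 2 fell (median 0.37). The 39 include 1 gene that was tested only through its level in DE or DEHP and rose. Without it the median was 0.369. Gstm4, a glutathione transferase, and Pgd, of the pentose phosphate pathway, changed by 1.20 and 1.16. The 2 that fell were Gstp1 (-1.61), the abundant transferase of male liver, and Gss (-1.37), the last enzyme of glutathione synthesis.

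Several enzymes that oxidise alcohols and aldehydes were higher in DE than in EtOH. Of 19 tested ethanol and aldehyde genes, 8 rose and 1 fell (Aldh8a1, -0.19, named after its value was seen), with a median of 0.13. The Aldh8a1 call was lost without DE6 or DE3 (adjusted p = 0.0659 and 0.0557), and without TMM factors. Adh1, the main alcohol dehydrogenase of liver, had 2165, 2601 and 3238 FPKM in DE and 1338, 1428 and 1647 FPKM in EtOH (log2 change 0.79 ± 0.13 SE, adjusted p = 3.41e-05). Every DE library exceeded every EtOH library. The aldehyde dehydrogenases Aldh3a2, for fatty aldehydes, and Aldh1a1, for retinal and acetaldehyde, changed by 1.68 and 1.02. Aldh2, the mitochondrial enzyme that removes most acetaldehyde, did not pass (-0.18 ± 0.09 SE, adjusted p = 0.15), nor did Cyp2e1, the ethanol-inducible oxidase (-0.01 ± 0.12 SE, adjusted p = 0.95). Cyp2e1 was higher in DEHP than in CT by 0.49, and its interaction of -0.50 missed the threshold (adjusted p = 0.06).

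Genes that male liver expresses more than female liver, under the pulses of growth hormone that reach STAT5B, fell. Of 29 tested male-biased genes 20 fell and 2 rose (median -1.61), and of 13 tested female-biased genes, of 28 listed, 9 rose and 1 fell (median 1.41). Of those 13, 4 were at 1 FPKM or more in fewer than 6 of the EtOH and CT libraries, so only their level in DE or DEHP let them be tested, and all 4 are among the 9. The median of the other 9 was 0.69. Without DE6, 17 male-biased genes fell. Hsd3b5, a steroid reductase, had 0.36, 4.77 and 83.3 FPKM in DE and 151, 164 and 210.1 FPKM in EtOH (log2 change -3.35 ± 0.85 SE, adjusted p = 0.0039). Serpina1e, a protease inhibitor, had 69.3, 243 and 2158 FPKM in DE and 5187, 8110 and 13097 FPKM in EtOH (log2 change -4.09 ± 0.76 SE, adjusted p = 1.84e-04). Both varied widely within DE and still did not overlap with EtOH. The major urinary proteins Mup21 and Mup12, pheromone carriers, changed by -2.87 and -2.53, while Mup10 did not pass (-0.05, adjusted p = 0.84). Serpina1 and Mup genes are families of near-identical copies, so single members are uncertain. The members that rose were Cyp4a12a (1.11) and Cyp4a12b (1.45, named after its value was seen), fatty acid hydroxylases. On the female-biased side Cyp2a4 (chr7:26307192-26315088), a steroid hydroxylase, had 15.4, 45.3 and 82.0 FPKM in DE and 0.08, 0.17 and 0.84 FPKM in EtOH (log2 change 7.20 ± 0.52 SE, adjusted p = 1.37e-10), and Gstt3 and Rtn4 changed by 1.58 and 1.41. The member that fell was Cyp2c40 (-1.11, named after its value was seen). The growth hormone receptor Ghr fell by 0.50, and its targets Igf1 and Igfals fell by 0.68 and 1.06. Stat5b did not pass (0.07, adjusted p = 0.69). In DEHP over CT 11 male-biased genes fell and 3 rose, and 8 female-biased genes rose and none fell. Over all genes tested 14.4% rose and 11.6% fell there. In both lists together 2 genes passed the interaction, Cyp4a12b (-0.97) and Cyp2u1 (-1.11), a male-biased P450.

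Secreted liver proteins fell broadly. Of 36 complement and coagulation genes 27 fell and none rose (median -0.41), and of 30 secreted carriers and apolipoproteins 20 fell and 1 rose (median -0.53; Serpina7, 0.85, named after its value was seen). Serpina12 (chr12:104028769-104044443), which encodes the adipokine vaspin, had the largest fall of the comparison, at 0, 0.04 and 0.77 FPKM in DE and 9.38, 14.5 and 17.7 FPKM in EtOH (log2 change -6.46 ± 0.49 SE, adjusted p = 2.66e-10). Alb had 21359, 21938 and 25117 FPKM in DE and 28289, 30874 and 36949 FPKM in EtOH (log2 change -0.56 ± 0.11 SE, adjusted p = 5.50e-04), without overlap. Apoa4 and Apoc3, apolipoproteins of triglyceride-rich particles, changed by -1.83 and -0.73, and Ahsg, the fetuin carrier, by -0.82. Apoe did not pass (-0.16, adjusted p = 0.34). C8a and C1s1 of complement changed by -1.29 and -0.96 and F7 of coagulation by -0.70, while C3, the central complement component, did not pass (0.16, adjusted p = 0.43). In bulk tissue fewer hepatocytes and less RNA of a gene per hepatocyte cannot be told apart. Of 20 hepatocyte markers 13 fell and none rose (median -0.41), and their summed level was 60130 to 64910 FPKM in DE and 79340 to 93880 FPKM in EtOH, without overlap. Pericentral genes fell in 10 of 20, among them Cyp1a2 (-1.06 ± 0.11 SE) and Gulo (-0.96), and periportal genes fell in 11 of 20 with 1 higher (Ndufb10, 0.24, named after its value was seen). Cyp1a2 passed the interaction (-0.92 ± 0.16 SE, adjusted p = 0.0014), with a change of -0.15 in DEHP over CT.

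Markers of other liver cells gave little. None of 18 sinusoidal endothelium, 14 Kupffer cell and 6 cholangiocyte markers passed the test in edgeR, and 3, 0 and 0 of them had an unadjusted p below 0.05. DESeq2 called 1 endothelial marker and limma 2, and neither called a Kupffer cell or cholangiocyte marker. The summed markers overlapped between groups, at 121 to 194 FPKM in DE and 107 to 137 FPKM in EtOH for endothelium, and at 202 to 282 FPKM and 157 to 295 FPKM for Kupffer cells. Of 14 stellate markers only Des rose (3.52), on DE6 alone: it was at 101 FPKM there and at most 2.03 FPKM in DE1 to DE5 and 1.86 FPKM in EtOH, and its log2 change was 0.14 without DE6. Among 5 adipocyte markers, 3 rose: Fabp4 (2.75), Cidec (1.71) and Cfd (5.68, lost without DE6 with an adjusted p of 0.15). Of the 5 markers, 2, Cidec among them, were tested only through their level in DE or DEHP, and both rose. The median of the other 3 was -0.09. Car3, a carbonic anhydrase also abundant in liver, fell (-1.08, named after its value was seen). Fabp4 and Cidec encode lipid proteins that hepatocytes can also express, and their groups did not overlap. The list's summed level, 1049 to 1985 FPKM in DE and 1915 to 2292 FPKM in EtOH, overlapped.

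Protein degradation and respiration shifted by small amounts in many genes. Of 35 proteasome subunits 33 rose and none fell, with a median of 0.34 and Psmd14 and Psma5 at 0.69 and 0.64. Of 52 nuclear-encoded respiratory chain subunits 29 rose (median 0.22), among them Ndufb3 and Atp5g3 at 0.53 and 0.44. With a trend on gene length removed, 17 rose and the median was 0.12. Of 43 cytosolic ribosomal proteins 2 rose (Rpl15 and Rpl22, named after their values were seen; median 0.06), and 12 did so without TMM factors. Without DE6 4 rose, and without DE3 or without DE4 1 did. With no filter on low values none rose, and with the length trend removed 4 fell.

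Genes of amino acid catabolism, the acute phase and the interferon response held calls in both directions. Over all genes tested 15.1% rose and 12.7% fell, and list counts near these shares are not read as a response. Of 39 urea cycle and amino acid genes 6 rose and 11 fell (median -0.12), and 3 rose without DE6. Of 29 acute phase genes 2 rose and 5 fell, and the median, -0.05, turned positive without DE6 (0.02), where 3 fell. The 2 that rose include 1 that was tested only through its level in DE or DEHP. Of 25 interferon-stimulated genes 1 rose and 5 fell (median -0.25). The called ones, named after their values were seen, were Ifi27l2b (2.53), and, lower, Rtp4 (-0.79), Ifit1 (-0.74), Usp18 (-0.68), Irf7 (-0.56) and Irf9 (-0.43).

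In glucose metabolism 4 of 26 genes rose (Igfbp1, Lpin1, Pfkfb1 and Ppargc1a) and 8 fell (median -0.09), where 15.1% of all genes tested rose and 12.7% fell. G6pc, which releases glucose, had a log2 change of 0.43 (adjusted p = 0.10, and 0.0488 without DE6) and Pck1, the carboxykinase, one of -0.09 (adjusted p = 0.76). G6pc fell by 1.03 in DEHP over CT and had an interaction of 1.47 ± 0.27 SE (adjusted p = 0.0019). Pfkfb1, the hepatic regulator of glycolysis and gluconeogenesis, rose by 0.99 (interaction 0.82, adjusted p = 0.014).

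Of 23 tested genes of DNA replication and mitosis 8 rose and 2 fell (median 0.15), whereas in DEHP over CT 14 rose and none fell (median 0.84). Over all genes tested 14.4% rose and 11.6% fell in DEHP over CT. Of the 23, 7 were tested only through their level in DE or DEHP, and 4 of these 7 rose in DE over EtOH. The median of the other 16 was 0.10. Such entry favours a rise in both comparisons. Mcm6, a subunit of the replicative helicase, had 2.84, 3.79 and 7.74 FPKM in DE and 0.60, 1.31 and 1.53 FPKM in EtOH (log2 change 1.76 ± 0.26 SE, adjusted p = 1.22e-05). Mcm4 and Lig1, the replicative ligase, changed by 1.42 and 1.03. Pcna (0.09, adjusted p = 0.58) and Ccnd1 (-0.44, adjusted p = 0.14) did not pass. The members that fell were the replication initiation factors Mcm10 (-0.93) and Cdt1 (-0.88), named after their values were seen. The interaction passed for Cdt1 (-1.71) and for Cdc20 (-3.60), an activator of mitotic exit that changed by 3.19 in DEHP over CT. The levels behind these genes are low, so counting error weighs more on them than on the abundant enzymes above.

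Among the 12 largest rises and falls, some genes belonged to none of these groups. Slc39a5, a zinc transporter, had 12.0, 14.4 and 24.5 FPKM in DE and 0.22, 0.40 and 0.80 FPKM in EtOH (log2 change 5.16 ± 0.34 SE). Rad51b, a recombination gene, changed by 5.16, Ly6d, a membrane antigen, by 4.98, Chil1, a chitinase-like secreted protein, by 5.50 and Cox6b2, a testis-type subunit of cytochrome oxidase, by 4.81. These genes and Slc39a5 were at 1 FPKM or more in fewer than 6 of the EtOH and CT libraries. Only their level in DE or DEHP let them be tested. Tff3, a trefoil peptide, changed by -3.10, Clec2h, a lectin, by -3.02, Adgrf1, an adhesion receptor, by -2.86 and Sdr9c7, a dehydrogenase, by -2.63. Ugt2b38, a glucuronosyltransferase, and the pseudogene Serpina4-ps1 changed by -3.33 and -3.34. In all of them the groups did not overlap, as in 15.7% of all genes tested. These genes were picked for the size of their change in the same libraries, which favours groups that do not overlap. Clec2h alone among them passed the interaction (-2.34 ± 0.65 SE, adjusted p = 0.031), a call lost without DE6 and CT1 (adjusted p = 0.0501) and without DE3 (0.0517). Without DE4, the Adgrf1 interaction passed as well (adjusted p = 0.029).

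Of the 10 interaction genes with the smallest adjusted p, 4 are described next. The receptor Gpr146, which acts in hepatic lipid metabolism, had 16.0, 17.5 and 19.4 FPKM in DE and 31.7, 33.8 and 36.4 FPKM in EtOH, against 13.8 to 19.3 FPKM in DEHP and 12.0 to 16.8 FPKM in CT (interaction -1.20 ± 0.11 SE, adjusted p = 5.71e-07). The sphingosine kinase Sphk2 changed by -0.32 in DE over EtOH and by 0.87 in DEHP over CT. Fam63a (-0.69 and -0.03) and St5 (1.20 and 0.13) changed with ethanol present and had no call without it. For Gpr146, Fam63a and St5 the EtOH libraries lay wholly outside the ranges of the other 3 groups. For Sphk2 it was CT that lay apart, at 10.6 to 14.5 FPKM, against at least 19.7 FPKM in each of the other libraries.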

How the data were processed

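The authors deposited, for each library, an expected count and an FPKM value per gene with its length. Per the file headers, expected counts are estimated reads without normalisation, and FPKM values divide them by length and library total. The submitters' processing notes name Cuffdiff, mm10 and GRCm38. For the aligner, for reads shared by similar genes and for strand, the method is not given in the sources used here, so overlapping and antisense genes are uncertain. Of 17537 genes in any table, 17491 were placed in the RefSeq table of GRCm38.p6 and 7 had no symbol of their own.

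Missing genes counted as 0. Genes with at least 1 FPKM in at least 6 of the 24 libraries (10697) were tested. Genes low in EtOH and CT pass that filter only where DE or DEHP is high, so counts and medians of lists that hold such genes are descriptions. So are the ranks of such genes among the largest rises. Expected counts were rounded and fitted with 4 group means over all 24 libraries in edgeR 4.0.16 under R 4.3.3, scaled by TMM factors, which left 20 residual degrees of freedom. The quasi-likelihood test was adjusted by Benjamini-Hochberg over all genes tested and called under 0.05. Standard errors are those of the log2 change. The procedure was tested on simulated counts. Alternatives were limma 3.58.1 on log2(FPKM + 1) or log2(FPKM + 0.1), DESeq2 1.42.0, no TMM, no filter, a length trend removed, the 12 libraries alone, the replicate block, and fits without DE6, without DE6 and CT1, and, chosen after seeing the data, without DE3 or DE4. Counts of libraries within a group differed by at least 6.65 times counting noise (chi-square per degree of freedom), so none was counted as a duplicate.

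The members and lists were chosen with earlier results of these data known. The text names genes from the 12 largest rises and falls (called with and without DE6, mean of at least 2 FPKM in a group), up to 5 called and 3 uncalled members of each list, the 10 strongest interactions and a fixed set, and says where it goes beyond them. Among list members the 5 have the smallest adjusted p and the 3 the highest mean. Promoters are those of RefSeq (GRCm38.p6), 250 bases before each start. The total counts limit what can be said of weak genes, and counting error is the least error of any value. Some genes are not reported here.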

Additional observations from a re-analysis of the deposited data

Results flagged for a closer look

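Single libraries stood far from the other 5 of their group in 34 of 296 gene and group combinations, by Dixon's gap on log2(FPKM + 1), and chance gives about 1 in 20. The values are FPKM. DE4 was low for Cyp2b9 (12.7), Rad51b (11.3), Acat2 (109), Srebf1 (55.4), Cyp2b10 (6.42) and Rtn4 (22.4). DE4 was high for Serpina12 (0.77) and Serpina4-ps1 (10.4). DE3 was low for Ppard (3.55) and Npas2 (1.05). DE3 was high for Dbp (6.88) and Tef (14.7). DE6 was low for Fabp1 (11461) and Calr (466). DE6 was high for Bag3 (25.3), Mylpf (363), Des (101) and Cfd (48.4). DE1 was low for Igfals (31.1), Mup10 (7423) and C1s1 (67.5). EtOH4 was low for Sphk2 (22.5), Nr1d1 (42.9) and Mcm6 (0.6). EtOH4 was high for Cpt1a (108), Ppara (41.5), Scd1 (1919) and Bag3 (20.6). EtOH3 was low for Nr1h4 (49.3) and Fas (4.75). EtOH5 was low for Sdr9c7 (22.2). EtOH5 was high for Serpina4-ps1 (53.9). EtOH1 was low for Hspa4l (2.12). EtOH6 was low for Me1 (64.8). DE4 held 8 of these values and DE6 6. Without DE6 the change of Mylpf, a muscle myosin light chain, was -0.70 and did not pass (adjusted p = 0.87).

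The change of DE over EtOH differed from that of DEHP over CT, by the interaction term at an adjusted p below 0.05, in 40 of the 148 genes considered. These genes were chosen in part by the interaction itself, so this count does not estimate a rate. Over all genes tested the interaction passed in 6.41%. The log2 interaction was positive for Mylpf (11.55), Des (7.08), Cpt1b (4.95), Cdkn1a (4.65), Npas2 (2.91), Lpin1 (2.78), Ppard (2.68), Pdk4 (2.49), Trp53inp1 (1.58), Arntl (1.55), Angptl4 (1.54), Manf (1.53), G6pc (1.47), Hspa5 (1.40), Acly (1.19), St5 (1.07), Hspa4l (0.96), Dnajb9 (0.94), Herpud1 (0.92), Plin2 (0.84), Stip1 (0.84), Pfkfb1 (0.82), Acacb (0.81), Pmvk (0.76), Pdia4 (0.67) and Hacl1 (0.42). It was negative for Dbp (-4.92), Cyp7a1 (-2.43), Clec2h (-2.34), Nr1d1 (-2.30), Tef (-1.77), Gpr146 (-1.20), Sphk2 (-1.19), Cyp1a2 (-0.92), Gss (-0.83), Cry2 (-0.79), Igfals (-0.77), Fam63a (-0.65), Nr1h4 (-0.54) and Dgat2 (-0.45). Without DE6 and CT1 the interactions of Mylpf and Des, both muscle transcripts of those libraries, were -0.75 and -0.10 and did not pass (adjusted p = 0.57 and 0.90). Those of Cpt1b, Pdk4, Clec2h, Acacb and Nr1h4 no longer passed either. Without DE4 the interactions of Hsd3b5 (-3.64), Serpina1e (-2.85), Mup21 (-2.05), Ppargc1a (0.94) and Rtn4 (0.57) also passed.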

How the results depend on the processing

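Over 45 summary results, 511 alternative values stayed within 1.5 times the main count, or within 1 SD (of the 6 DE library medians) of the main list median, and 25 moved. The number of genes with a lower interaction, 331, was 203 without TMM, 199 on log2(FPKM + 1) and 189 on log2(FPKM + 0.1). In the same 3 settings the list medians were 0.22, 0.23 and 0.24 for peroxins, -0.12, -0.14 and -0.14 for bile acid genes, -0.022, -0.017 and -0.017 for gluconeogenesis (-0.15 to -0.047 with a library left out), -0.046, -0.041 and -0.041 for urea cycle genes and -0.24, -0.19 and -0.24 for pericentral genes. The medians were 1.05 for female-biased genes on log2(FPKM + 1), and -0.036 for growth hormone genes and 2.41 for adipocyte markers on log2(FPKM + 0.1). Respiratory chain subunits had 0.12 with the length trend removed. Skeletal muscle markers had -0.13 without DE6, and -0.14 to 2.82 over the fits with libraries left out. Over the same fits Mylpf ran from -0.70 to 5.42, its interaction from -0.75 to 11.81 and that of Des from -0.10 to 7.32. The negative values, from fits without DE6 or without DE6 and CT1, did not pass. Mylpf and Des both carry the muscle transcripts of DE6 and CT1. For other moves the cause was not tested. With the replicate block, 2871 genes passed, 1557 higher and 1314 lower, and 599 interactions. Correlations of same-numbered libraries ran from -0.066 to 0.098, and 0 of 6 DE libraries were closest to their own number. These values gave no sign of pairing by number, but a weak shared effect of batch or day need not show in them. DESeq2 passed 3030 genes and 946 interactions, no filter 2785 of 17524, and fits without DE3 and DE4 2692 and 2910. At these depths, changes in genes near 1 FPKM are the least certain.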
